A study of Mus musculus with 6 samples.

Results

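Fibrillar collagens and the small leucine-rich proteoglycans that decorate them were followed through brain cell types after stroke. The 10 genes were Col1a1, Col1a2, Col3a1, Dcn, Lum, Fmod, Bgn, Ogn, Postn and Fn1, chosen by symbol with earlier results of these data known. They are 10 of the 32285 genes in the count matrix, and all 10 were detected in cells. The data are 10x 3′ single-cell RNA counts of cortical cells from male RGS5::GFP het mice aged 8 to 12 weeks, in which GFP replaces 1 Rgs5 allele, so that all groups carry the same reduced gene dose of this pericyte marker. There were 6 groups with 1 library each, the contra and the ipsi cortex 1, 12 and 24 h after permanent occlusion of the distal middle cerebral artery, and the methods name 3 mice. Myelin and neurons had been depleted and dead cells sorted out, so that values describe what survived dissociation. The matrix numbers its libraries 1 to 6, and the sources used here do not say which number belongs to which hemisphere or time. All cells were therefore treated as 1 pooled sample, values of numbered libraries are given as they stand, and no value is assigned to a condition.

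Collagen I is a trimer of the chains encoded by Col1a1 and Col1a2, collagen III is built from Col3a1 alone, and both form the fibrils of connective tissue. Decorin (Dcn), biglycan (Bgn), lumican (Lum), fibromodulin (Fmod) and osteoglycin (Ogn) are small secreted proteins with leucine-rich repeats, several of which bind collagen fibrils and set their spacing. Periostin (Postn) and fibronectin (Fn1) are matrix proteins that bind collagens and integrins. In the healthy brain, fibrillar collagen is largely restricted to the meninges and to fibroblasts around larger vessels, and fibroblasts are a known source of scar matrix after injury.

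Of the 10 genes, 5 lie beside related genes. In the mouse GRCm38 build, the one the authors' mm10 label names, Dcn lies at chr10:97479609-97518143 and Lum at chr10:97565128-97572703, with no protein-coding gene in the 47.0 kb between them, followed by the keratocan (Kera) and epiphycan (Epyc) genes. Ogn lies at chr13:49608046-49624501 beside its relatives Omd, Aspn and Ecm2, all of them within the span of the oppositely oriented gene Cenpp. Fmod lies at chr1:134037254-134048277, 115.8 kb from Prelp, and Col3a1 at chr1:45311538-45349706, 24.6 kb from Col5a2. The others have no such neighbour named here, Col1a1 at chr11:94936224-94953042, Col1a2 at chr6:4504814-4541544, Bgn at chrX:73483602-73495933, Postn at chr3:54361109-54391037 and Fn1, on the minus strand, at chr1:71585520-71653200. These spans are whole genes with exons, introns and untranslated ends, from GENCODE vM21, in which all 10 gene IDs matched. Other annotated genes also overlap Col1a2 (Gm43921) and Col3a1 (Gm47302) on the same strand, and reads shared with them cannot be told apart here. Apol7d overlaps Fn1 on the opposite strand and had 20 UMIs in cells, against 14031 of Fn1.

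Promoter sequences from RefSeq (GRCm38.p6, 250 bases before to 50 bases after the annotated start) were at hand for 6 of the 10 genes. Shown here are Col1a2, Col3a1, Bgn and Ogn, because these 4 were the members detected at more than 30 CPM in fibroblast-like, pericyte-like and smooth muscle-like cells alike that had an entry. They lie on the plus strand, at chr6:4505368-4505667, chr1:45311288-45311587, chrX:73483351-73483650 and chr13:49607765-49608064. Capitals mark matches on either strand to TATAAA (the TATA box), CCAAT (the CCAAT box) and GGGCGG (the GC box), and overlapping matches run together.
Col1a2: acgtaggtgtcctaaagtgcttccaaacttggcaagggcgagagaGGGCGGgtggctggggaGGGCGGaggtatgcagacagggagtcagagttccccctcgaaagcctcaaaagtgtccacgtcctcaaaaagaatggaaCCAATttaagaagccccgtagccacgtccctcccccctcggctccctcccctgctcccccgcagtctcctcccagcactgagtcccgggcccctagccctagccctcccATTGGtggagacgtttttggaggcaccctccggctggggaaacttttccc
Col3a1: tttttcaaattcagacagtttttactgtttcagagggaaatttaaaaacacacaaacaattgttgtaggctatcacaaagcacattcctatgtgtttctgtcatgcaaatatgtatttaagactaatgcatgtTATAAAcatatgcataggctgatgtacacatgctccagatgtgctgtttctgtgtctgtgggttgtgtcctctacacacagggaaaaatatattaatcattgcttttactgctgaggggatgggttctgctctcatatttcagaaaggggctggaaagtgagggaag
Bgn: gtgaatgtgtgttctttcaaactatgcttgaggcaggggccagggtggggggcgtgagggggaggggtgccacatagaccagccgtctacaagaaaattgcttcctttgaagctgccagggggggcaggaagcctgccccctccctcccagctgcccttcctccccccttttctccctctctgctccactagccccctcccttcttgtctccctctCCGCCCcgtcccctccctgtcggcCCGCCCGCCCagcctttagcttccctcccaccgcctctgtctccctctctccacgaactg
Ogn: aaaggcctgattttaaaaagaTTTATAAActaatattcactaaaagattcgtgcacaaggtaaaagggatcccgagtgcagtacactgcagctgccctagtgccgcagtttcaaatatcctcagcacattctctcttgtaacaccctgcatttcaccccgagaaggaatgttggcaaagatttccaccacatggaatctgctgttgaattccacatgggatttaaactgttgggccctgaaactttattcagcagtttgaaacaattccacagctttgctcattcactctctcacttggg
Among all 32851 promoters of the table, 13.6% held TATAAA, 37.4% CCAAT and 35.7% GGGCGG. The Col1a2 window held CCAAT 109 bases before the start and again, on the other strand, at the start itself, together with 2 GC boxes. Bgn held 3 GC boxes on the other strand within 34 bases before the start, whereas Col3a1 and Ogn held TATAAA but at -117 and at -229 to -227, away from the usual place of a TATA box. No motif was shared by all 4 windows, which says only that these letters are not there.

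After filtering, 17357 cells remained, between 1221 and 5873 per library, with median depths of 5053 to 5660.5 UMIs per cell. A UMI is a molecular tag with which each captured RNA molecule is counted once, and levels are given in CPM, a gene's UMIs scaled to all UMIs of the same cells, with exact 95% Poisson intervals. These intervals, like those of ratios and shares, cover counting error only, and cells are not replicates, so no p-value was computed. Across libraries, 26 barcode sequences were shared by 52 cells, none of them a fibroblast-like cell. Clustering without the 10 genes and without 59 other matrix genes gave 27 clusters. They were named from marker lists for 20 classes, of which 12 were assigned to a cluster. Names end in -like because they were rebuilt here, and 230 cells in 4 clusters stayed unnamed.

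The fibroblast-like cells were a small cluster of 31 cells, with 3, 7, 5, 2, 3 and 11 cells in libraries 1 to 6. The 9 fibroblast markers summed to 4335 CPM in them, while smooth muscle-like cells reached 22.2 CPM and pericyte-like cells 275 CPM. Because this marker list was used to name the cluster, its high sum is not separate evidence of identity. All 9 were detected, but Dpt only by 1 UMI in 1 cell and Clec3b by 18 UMIs in 5 cells. Pdgfra, the receptor that marks fibroblasts, had UMIs in 26 of the 31 cells, and Islr in 29. The endothelial marker Pecam1 had no UMI, and Acta2, Aif1 and Rgs5 had 1 UMI each. Other genes of the same lists were present. The smooth muscle list summed to 647 CPM with 5 of 7 genes detected. The microglia list summed to 192 CPM with 4 of 7 detected, and the endothelial list to 80.9 CPM with 2 of 6. The pericyte gene Pdgfrb had 48 UMIs in 21 of the 31 cells, 243 CPM. Il11, a cytokine gene, had 184 UMIs in 3 of the cells, 931 CPM, and its part in their decorin was not tested. Vtn, which is also a pericyte marker, reached 3829 CPM in 24 of the cells and made up most of the 4087 CPM of the pericyte list there, of which 5 of 9 genes were at 0. Doublets were called for 2 of the 31 cells.

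Of the 10 genes, 9 were higher in fibroblast-like cells than in any other named class, and fibronectin was the exception. With each cell thinned to 1000 UMIs the number was 8. The same 9 were at least 4 times higher than in all other cells together, a step that 2.21% of the 18142 genes tested reached, computed on CPM plus 10. The median log2 ratio of the 10 genes was 5.06, and that of all genes tested was -0.07. Decorin was the most abundant, at 10152 CPM (9713 to 10606), and was found in each of the 31 cells. The fibroblast-like cells, 31 of 17357, held 74.5% of all decorin UMIs in cells and 87.0% of all lumican UMIs. The lead for Fmod over smooth muscle-like cells was within counting error. A mural subcluster of 35 cells, described below, had more Ogn than fibroblast-like cells, 591 CPM (472 to 731) against 248 (183 to 328). Its Fmod was also higher, 181 CPM (118 to 265) against 55.6 (27.8 to 99.6). For Col3a1 the intervals overlapped, 626 CPM (504 to 770) against 425 (339 to 526). Dcn, Lum, Col1a1, Col1a2 and Bgn were lower in this subcluster.

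**Figure D1:**
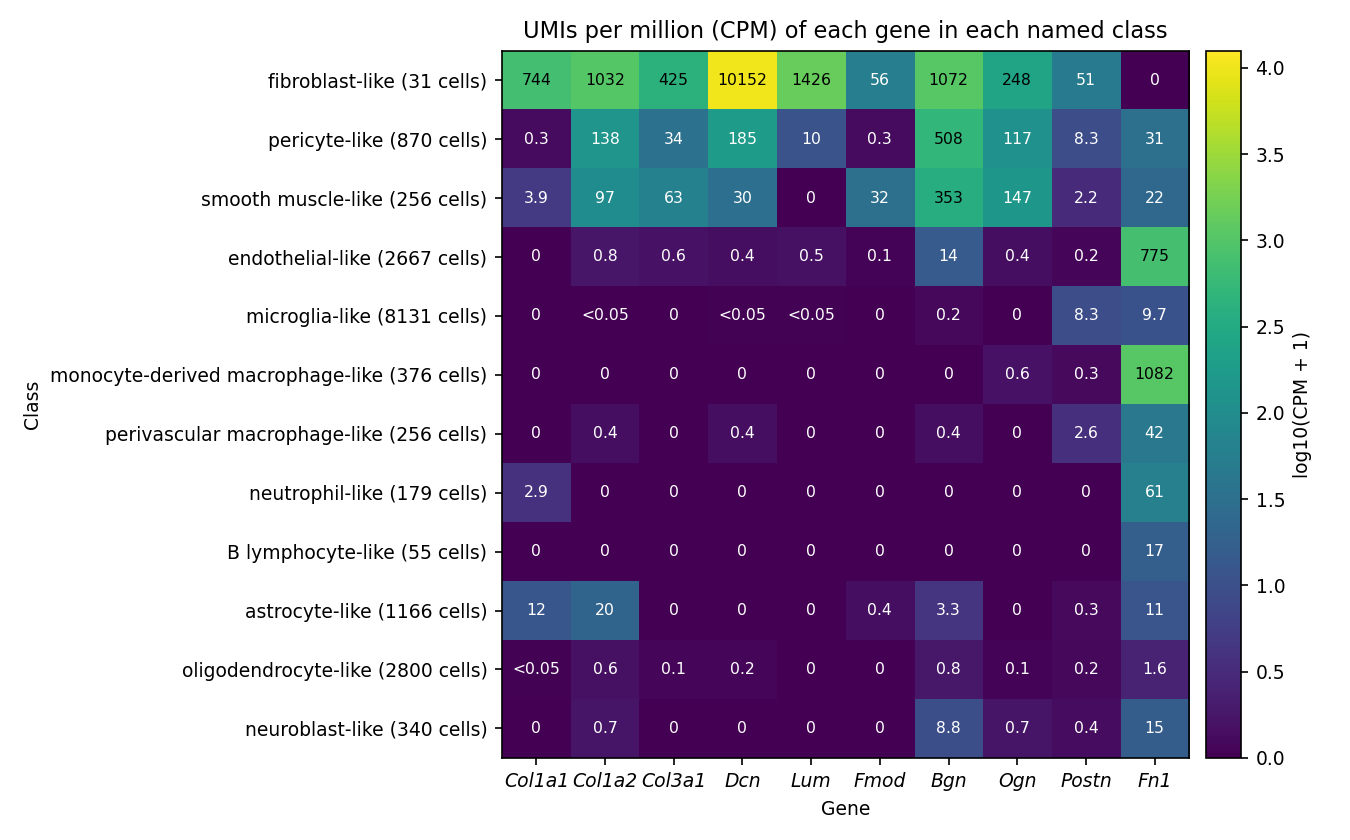
Heat map of the 10 genes (columns) in the 12 named classes (rows, with the number of cells), where colour gives log10(CPM + 1) and the printed number gives CPM. The fibroblast-like row is the highest for 9 genes, from 51 CPM for Postn to 10152 CPM for Dcn, and holds 0 for Fn1, which peaks at 1082 CPM in monocyte-derived macrophage-like cells and 775 CPM in endothelial-like cells.

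Both chains of collagen I were present in fibroblast-like cells, with fewer UMIs of Col1a1 than of Col1a2. Col1a1 stood at 744 CPM (628 to 874) with UMIs in 29 of 31 cells, and Col1a2 at 1032 CPM (895 to 1184) with UMIs in all 31. Each of the 29 cells with Col1a1 also had Col1a2. The ratio of Col1a1 to Col1a2 UMIs was 0.721 (0.579 to 0.895), and in library 6 the chains had 38 and 71 UMIs. Col3a1 reached 425 CPM (339 to 526), and 17 of the cells had all 3 chains. Summed, the 3 chains were 203 times higher than in all other cells (182 to 227).

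By library, the fibroblast-like cells of libraries 1 to 6 had 1167, 826, 1316, 612, 1038 and 439 CPM of Col1a1. Library 6, with 11 of the cells, had the lowest value. Decorin stood at 5753, 4683, 8278, 2399, 4761 and 16379 CPM in the same order, so that library 6 was the highest and its interval (15538 to 17255) lay above those of the other libraries. Biglycan had the same top library, with 667, 765, 727, 188, 427 and 1699 CPM. Lumican did not single out library 6, with 1084, 673, 1524, 612, 2441 and 1734 CPM, and osteoglycin was lowest in libraries 1 and 6, with 83.4, 153, 693, 376, 427 and 92.5 CPM. Without library 6, decorin in fibroblast-like cells was 5307 CPM.

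The cells behind these sums differed as well. Decorin ran from 4 to 228 UMIs per fibroblast-like cell with a median of 41, and no cell was without it. In the 11 cells of library 6, it ran from 3500 to 28698 CPM. The makeup of the cluster varied with the library too. Slc6a13, a transporter found in fibroblasts around vessels, had UMIs in 22 of the 31 cells and in 4 of the 11 from library 6, and Col15a1 in 20 of 31 and 3 of 11, and Pdgfra in 26 of 31 and 9 of 11. The level of Pdgfra was 622 CPM in all 31 cells and 208 CPM (123 to 329) in those of library 6. Igf2 and Slc22a6 were also lower there, at 474 and 23.1 CPM against 1403 and 540 CPM in libraries 1 to 5. Mfap4 went the other way, at 624 CPM against 234 CPM. Clec3b (127 against 63.0 CPM) and Islr (381 against 504 CPM) had overlapping intervals, and Dpt had 1 UMI in all. Whether the cluster held the same kinds of fibroblast in each library was not tested. In sums over cells such as these, a change in the mix of cells and a change in RNA per cell cannot be told apart.

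**Figure D2:**
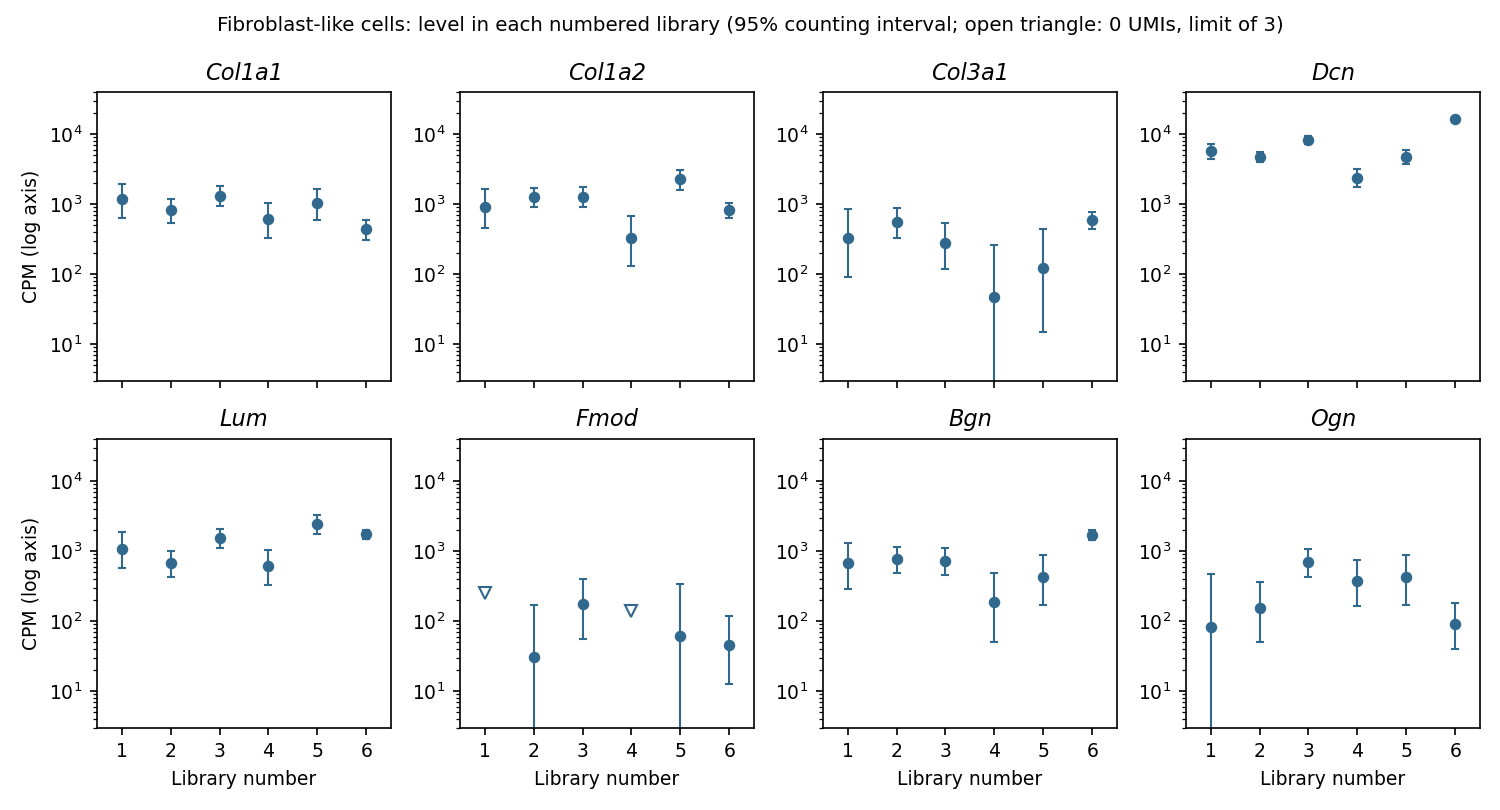
Level of 8 genes in the fibroblast-like cells of each numbered library, in CPM on a log axis, with points for the summed cells, bars for 95% counting intervals and an open triangle at the limit of 3 counts where no UMI was found. Dcn reached 16379 CPM in library 6 and 2399 to 8278 CPM in the other libraries, whereas Col1a1 was lowest there at 439 CPM.

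Mural cells carried a smaller set, all of it among the 9 genes that passed the same step in fibroblast-like cells. In the 870 pericyte-like cells, Bgn, Dcn, Col1a2 and Ogn were at least 4 times higher than in all other cells, 4 of 10 genes against 2.27% of all genes tested. In the 256 smooth muscle-like cells, Bgn, Ogn, Col1a2, Col3a1 and Fmod passed, 5 of 10 genes against 2.03%. Of their Col3a1 and Fmod UMIs, 86 of 114 and 26 of 57 lay in a subcluster of 35 cells described with the mural subclusters. The 168 cells of the main smooth muscle-like subcluster had 15.7 and 16.4 CPM of these genes. Whether both calls hold without the subcluster of 35 cells was not tested. Biglycan was the most abundant in both mural classes, at 508 CPM (484 to 533) in pericyte-like and 353 CPM (326 to 381) in smooth muscle-like cells. It had UMIs in 76.6% and 84.8% of the cells, and in 2.29% of endothelial-like cells. Median depths of these 3 classes were 3385, 6758.5 and 4001 UMIs. The endothelial-like class as a whole had 14.0 CPM of biglycan, near the free RNA level of 11.6 CPM, but its clusters differed. Of its 164 UMIs, 101 lay in the cluster of 272 cells with Mgp and Gkn3 among its leading genes. That cluster had 69.2 CPM (56.4 to 84.1), with UMIs in 16 cells. The other endothelial-like clusters were below the free RNA level.

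Pericyte-like cells held Col1a2 almost without Col1a1. They had 462 UMIs of Col1a2 and 1 of Col1a1, a ratio of 0.00216 (5.47e-05 to 0.0121), against 0.721 in fibroblast-like cells. Col1a2 stood at 138 CPM (125 to 151) in 39.3% of the cells and at 148, 105, 154, 134, 123 and 120 CPM in libraries 1 to 6, a level that did not separate any library. Col1a1 had no UMI in 5 of the 6 libraries. Smooth muscle-like cells were similar, with 96.5 CPM of Col1a2 (82.7 to 112) and 7 UMIs of Col1a1 against 174 of Col1a2, a ratio of 0.0402 (0.0159 to 0.0847). Of these UMIs, 5 of the 7 and 32 of the 174 lay in the subcluster of 35 cells described with the mural subclusters. The intervals of the ratio in both mural classes lay below that of the fibroblast-like cells.

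Astrocyte-like cells showed both chains of collagen I at low levels without collagen III or decorin. Col1a1 stood at 11.6 CPM (9.26 to 14.4) and Col1a2 at 19.9 CPM (16.8 to 23.4), with 84 and 144 UMIs in 77 and 103 of 1166 cells, 11 of them with both. Each of the 6 libraries had some, from 4.6 to 21.1 CPM for Col1a1 and from 12.5 to 95.8 CPM for Col1a2, where the highest value came from 31 cells. The ratio of the chains was 0.583 (0.440 to 0.769), close to that of fibroblast-like cells, yet Col3a1, Dcn, Lum and Ogn had no UMI among 7235508, which allows up to 0.415 CPM. Free RNA, measured in barcodes with 1 to 50 UMIs, held 2.06 CPM of Col1a1 and 9.60 CPM of Dcn in all libraries together. The mix varied, since library 3, with 410 of the 1166 astrocyte-like cells, had 11 free UMIs of Col1a1 and 2 of Dcn, and library 5 had 4 of each. The part of free RNA in the astrocyte-like values was not tested. Bgn and Fn1 in these cells, at 3.32 and 11.1 CPM, lay below their free RNA levels of 11.6 and 54.2 CPM, and Fmod had 3 UMIs. Doublets were called for 2 of the 77 cells with Col1a1.

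**Figure D3:**
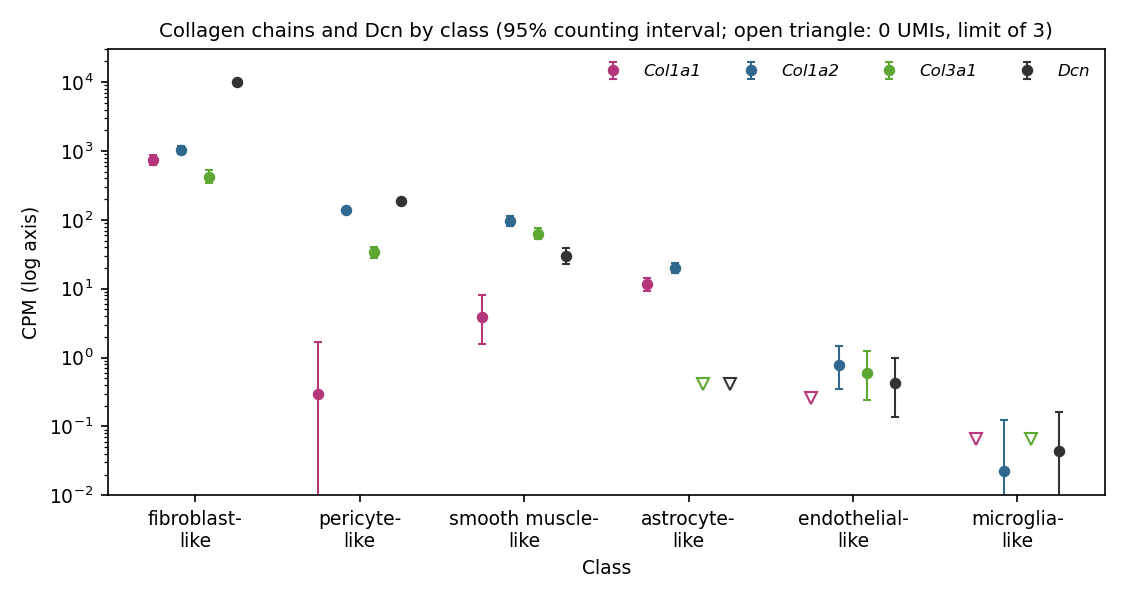
Col1a1, Col1a2, Col3a1 and Dcn in 6 classes, in CPM on a log axis, with points for summed cells, bars for 95% counting intervals and open triangles at the limit of 3 counts where no UMI was found. Pericyte-like cells have 138 CPM of Col1a2 beside 0.298 CPM of Col1a1, and astrocyte-like cells have both chains without Col3a1 or Dcn.

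The proteoglycans fell into different orders among these classes. Lumican was nearly confined to fibroblast-like cells, at 1426 CPM (1265 to 1603) against 10.1 CPM in pericyte-like cells, and it had no UMI in smooth muscle-like cells. Fibromodulin was rare, with 11 UMIs in fibroblast-like and 57 in smooth muscle-like cells, and its 55.6 and 31.6 CPM did not differ beyond counting error (ratio 1.76, 0.832 to 3.39). Pericyte-like cells had 1 UMI of it. Osteoglycin ran from 248 CPM in fibroblast-like cells to 147 CPM in smooth muscle-like and 117 CPM in pericyte-like cells. Each step was beyond counting error (1.69, 1.22 to 2.29, and 1.25, 1.07 to 1.47). However, 84 of the 265 smooth muscle-like UMIs lay in a subcluster of 35 cells described with the mural subclusters. The mural order was the reverse between the main smooth muscle-like subcluster and other pericyte-like mural cells. Biglycan ran in another order, 1072, 508 and 353 CPM in fibroblast-like, pericyte-like and smooth muscle-like cells, so that smooth muscle-like cells had 0.694 of the pericyte-like level (0.633 to 0.761). By library, biglycan in pericyte-like cells was 506, 458, 501, 370, 625 and 628 CPM and in smooth muscle-like cells 569, 227, 325, 424, 335 and 366 CPM. These ranges overlapped, and smooth muscle-like cells had the higher value in libraries 1 and 4.

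The relatives of these genes on the same chromosome stretch were expressed unevenly. Aspn, the neighbour of Ogn, stood at 598 CPM in pericyte-like and 516 CPM in smooth muscle-like cells and had no UMI in the 197691 of fibroblast-like cells, which allows up to 15.2 CPM. Ecm2, next to it, had 515 and 108 CPM in the mural classes and 3 UMIs in fibroblast-like cells. Ogn itself and Omd were found in all 3 classes, with Omd at 70.8 CPM in fibroblast-like, 31.9 CPM in pericyte-like and 21.1 CPM in smooth muscle-like cells. Beside Dcn and Lum, Kera and Epyc had no UMI in any cell. Prelp, near Fmod, was highest in fibroblast-like cells at 551 CPM, followed by smooth muscle-like cells at 164 CPM. Col5a2, next to Col3a1, stood at 152, 28.9 and 23.9 CPM in fibroblast-like, pericyte-like and smooth muscle-like cells.

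Decorin in pericyte-like cells came mostly from a small subcluster. In the whole class it stood at 35.1, 84.1, 21.3, 82.2, 64.1 and 901 CPM in libraries 1 to 6 and at 185 CPM in all, and without library 6 it was 47.2 CPM and the number of members called there was 3 and not 4. Reclustering the 1126 mural cells gave 10 subclusters, of which the response subcluster was the one with the highest Ccl7, Cxcl1, Mt1, Ccl11 and Cxcl2, a choice that used none of the 10 genes. It had 56 cells, 22 in library 4 and 34 in library 6 and none elsewhere, and Il11 led its genes. Decorin stood at 1578 CPM (1440 to 1725) in response cells and at 41.9 CPM (34.4 to 50.6) in the 758 other pericyte-like mural cells. Of 10749 genes tested between these groups, 1.25% were at least 4 times higher in response cells, Dcn and Lum among them, 2 of the 8 members tested. The ratio of decorin was 37.6 (30.5 to 46.7), and 485 of the 621 decorin UMIs of the pericyte-like class were in response cells.

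The libraries gave different sizes for this step. In library 4, decorin was 131 CPM in response cells and 47.5 CPM in other pericyte-like cells, a ratio of 2.77 (1.29 to 5.76). In library 6, the values were 2346 and 55.2 CPM, a ratio of 42.5 (25.9 to 75.0). Other pericyte-like cells had 28.7, 90.3, 21.6, 47.5, 70.7 and 55.2 CPM in libraries 1 to 6, so that they did not single out library 6. Without library 6 the ratio was 3.26, and without library 4 it was 57.4. The UMIs came from 32 of the 56 cells, and the cell with the most, 68, held 14.0% of them.

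Lumican went with decorin. It had 27 UMIs in 11 response cells, 87.8 CPM (57.9 to 128), and no UMI in the 758 other pericyte-like cells, whose 2599155 UMIs allow up to 1.15 CPM. Osteoglycin went the other way, with 9.76 CPM in response cells and 139 CPM in the others, a ratio of 0.0701 (0.0144 to 0.206) that held in library 4 (0.0693, 0.00172 to 0.402) and in library 6 (0.103, 0.0119 to 0.409). It was the 1 member among the 1.94% of genes at least 4 times lower in response cells. Biglycan and Col1a2 were lower by less, with ratios of 0.756 (0.627 to 0.904) and 0.509 (0.322 to 0.768), although the ratio of Col1a2 was 0.0520 (0.00130 to 0.298) within library 4 and 0.852 (0.486 to 1.46) within library 6. Of the 16 Col3a1 UMIs in response cells, 14 came from 1 cell.

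Most genes of the fibroblast list were absent from response cells. Pdgfra, Slc22a6, Mfap4, Dpt, Clec3b and Col15a1 had no UMI among their 307412, Islr, Slc6a13 and Igf2 had 1, 2 and 6, and Col1a1 and Fmod had none. However, Pdgfra, Slc22a6, Mfap4, Dpt and Clec3b had no UMI in the whole pericyte-like class either. Slc6a13 and Igf2 stood at 138 and 132 CPM in that class, against 6.51 and 19.5 CPM in response cells. The pericyte genes Pdgfrb, Abcc9 and Rgs5 had UMIs in 54, 52 and 46 of the 56 cells. Their levels of 1243, 904 and 856 CPM were lower than in the other pericyte-like mural subclusters. Those had 1476 to 2082 CPM of Pdgfrb, 1225 to 1680 CPM of Abcc9 and 3271 to 4170 CPM of Rgs5. Decorin in free RNA of libraries 1 to 6 was 18.4, 7.31, 0.719, 3.28, 1.79 and 28.3 CPM. Endothelial-like cells had 0.427 CPM of decorin in all and UMIs in 0.150% of cells, against 11.6% of pericyte-like cells. The part of free RNA in the decorin of response cells was not tested.

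Another mural subcluster, number 7, had the highest Col1a1, Col1a2, Col3a1, Fmod and Ogn of the 10 subclusters. For Col1a2 the lead was within counting error, at 223 CPM (152 to 314) against 188 CPM (158 to 224) in subcluster 2. Subcluster 7 had 35 cells, in all 6 libraries, and it stayed unnamed because its pericyte and smooth muscle scores were close. It was singled out after its values were seen, so the values are a description. Col3a1 stood at 626 CPM (504 to 770), Bgn at 626, Ogn at 591 and Fmod at 181 CPM, against 33.1, 564, 139 and 0.385 CPM in the other pericyte-like mural cells and 15.7, 356, 111 and 16.4 CPM in the 168 smooth muscle-like mural cells. Col3a1 had UMIs in 22 of the 35 cells and lay between 390 and 1145 CPM in the libraries, 1 of which had a lone cell, all above the range of 9.65 to 42.7 CPM in other pericyte-like cells. Osteoglycin had UMIs in 25 cells, and fibromodulin in 12. Col1a1 had 5 UMIs and lumican none, and decorin rested on 1 cell with 39 of its 54 UMIs.

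This subcluster decides several values of the smooth muscle-like class, to which 34 of its 35 cells belong. It held all 54 decorin UMIs of that class, 5 of 7 of Col1a1, 86 of 114 of Col3a1, 26 of 57 of Fmod and 84 of 265 of Ogn. Ogn stood at 111 CPM in the main smooth muscle-like subcluster and at 139 CPM in other pericyte-like mural cells, the reverse of the class order. These groups also leave out the response cells and the other unnamed subclusters, so the part of subcluster 7 alone in the reversal was not tested. The 168 cells of the main smooth muscle-like subcluster had no decorin UMI among their 1276913, which allows up to 2.35 CPM. Of the 9 fibroblast markers, 7 had no UMI in subcluster 7, Igf2 had 2 and Islr had 5. For Islr this is 34.8 CPM (11.3 to 81.2), against 13 UMIs in the 758 other pericyte-like cells (2.66 to 8.55 CPM). The main smooth muscle-like subcluster had 19.6 CPM of Islr (12.7 to 28.9), within the interval of subcluster 7. Pdgfrb and Rgs5 had UMIs in 32 and 33 of the cells of subcluster 7 and Acta2 in 15.

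**Figure D4:**
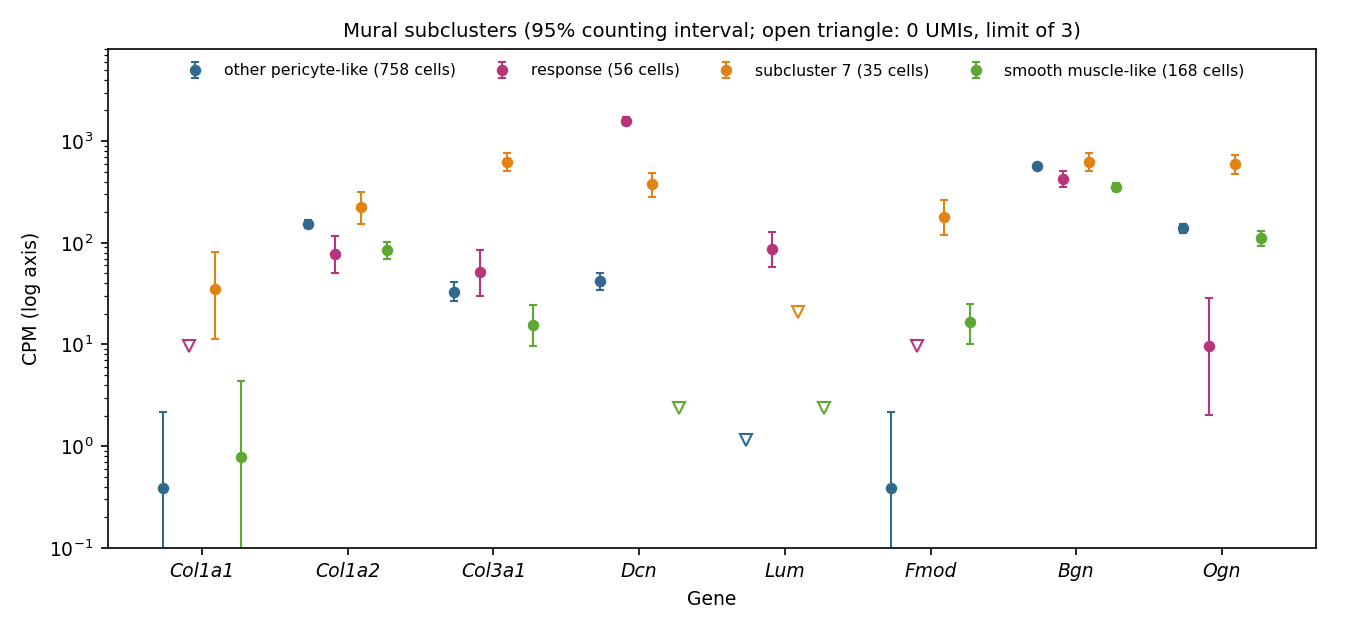
Level of 8 genes in other pericyte-like, response, subcluster 7 and smooth muscle-like mural cells, in CPM on a log axis, with points for summed cells, bars for 95% counting intervals and open triangles at the limit of 3 counts where no UMI was found. Response cells have the most Dcn (1578 CPM) and Lum (87.8 CPM) and the least Ogn (9.76 CPM), and subcluster 7 has the most Col3a1 (626 CPM) and Fmod (181 CPM).

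Fibronectin had a pattern of its own. It had no UMI in any of the 31 fibroblast-like cells, against 1082 CPM (1048 to 1118) in monocyte-derived macrophage-like cells and 775 CPM (759 to 791) in endothelial-like cells. In both of these classes it was the 1 member at least 4 times higher than in all other cells, where 1.33% and 2.67% of genes passed. UMIs of Fn1 were present in 72.1% of the macrophage-like class (median depth 8869.5 UMIs) and 83.8% of the endothelial-like class, while the microglia-like share was 1.16%. Pericyte-like and smooth muscle-like cells had 31.3 and 22.2 CPM, below the free RNA level of 54.2 CPM.

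Endothelial fibronectin stood at 593, 663, 868, 901, 681 and 749 CPM in libraries 1 to 6, and the intervals of libraries 1 (533 to 659) and 4 (859 to 945) did not overlap. Its 3 clusters had 795, 852 and 524 CPM, the lowest in the cluster with Mgp and Gkn3 among its leading genes. Macrophage-like cells had 74.9, 184, 577, 1511 and 1355 CPM in libraries 2 to 6, from 3, 11, 121, 4 and 237 cells, and there was no such cell in library 1. The ratio of macrophage-like to endothelial-like cells was 1.40 (1.34 to 1.45) in all, and without library 6 it turned to 0.730. Which of the 2 classes is higher in the pooled cells therefore depends on library 6. By library, macrophage-like cells were the higher in libraries 5 and 6, with only 4 such cells in library 5. They were the lower in libraries 2, 3 and 4. In microglia-like cells, Fn1 was 57.3 CPM in library 6 and at most 3.69 CPM in the other libraries. Free RNA held 132 CPM of Fn1 in library 6 and 30.5 to 61.2 CPM in the others. Its part in the microglia-like levels was not tested. Of the 437 Fn1 UMIs of the class, 402 were in the cluster led by Spp1 and Lpl.

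**Figure D5:**
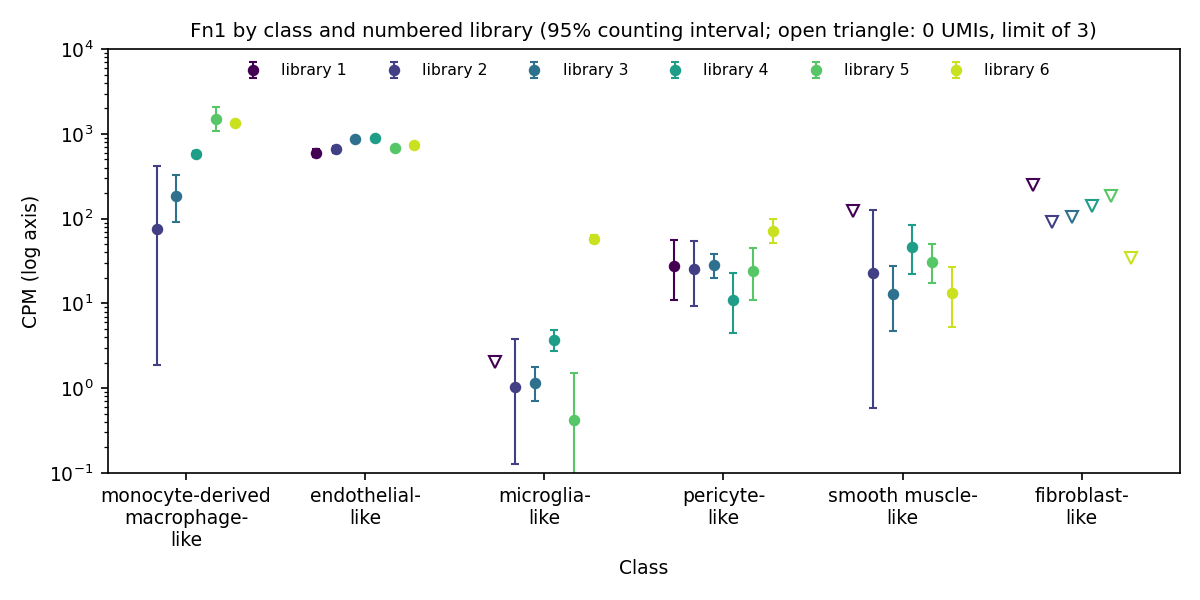
Fn1 in 6 classes and each numbered library, in CPM on a log axis, with points for summed cells, bars for 95% counting intervals and open triangles at the limit of 3 counts where no UMI was found. Endothelial-like cells lie between 593 and 901 CPM in all libraries, macrophage-like cells between 74.9 and 1511 CPM, and fibroblast-like cells have no UMI in any library.

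Periostin was low everywhere. Fibroblast-like cells had 50.6 CPM (24.3 to 93.0) from 10 UMIs in 5 cells, pericyte-like cells 8.34 CPM and microglia-like cells 8.28 CPM, and the last 2 did not differ beyond counting error (ratio 1.01, 0.660 to 1.48). In microglia-like cells, 373 UMIs lay in 250 of 8131 cells, with 1 cell holding 26, and every library had some, at 7.49, 4.17, 8.78, 7.39, 3.57 and 13.7 CPM. Free RNA held 1.93 CPM. None of the 250 cells was called a doublet.

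Genes of the wider matrix lists were spread over more classes. The share of all genes tested that passed was 2.21% in fibroblast-like, 2.27% in pericyte-like and 2.03% in smooth muscle-like cells. Of 18 tested genes of collagen processing and cross-linking, 6 were at least 4 times higher in fibroblast-like cells, Plod2, Serpinh1, Pcolce, Lox, Loxl1 and Loxl2, and 3 in pericyte-like cells. The median log2 ratios over this list were 1.1998 and 0.06, and over all genes tested -0.07 and -0.03. Pcolce, which promotes cleavage of procollagen ends, stood at 728 CPM in fibroblast-like and 126 CPM in pericyte-like cells, and Serpinh1, the collagen chaperone, at 658 and 607 CPM. The prolyl hydroxylase subunits P4ha1 and P4hb were highest in microglia-like cells, at 352 and 281 CPM. Of 7 other fibrillar collagens tested, Col5a2 passed in fibroblast-like and Col5a3 in pericyte-like cells, and Col27a1 was highest in microglia-like cells at 139 CPM, while Col11a2 was highest in astrocyte-like cells at 29.7 CPM. Of 7 fibril-associated collagens, Col12a1 passed in fibroblast-like cells, at 612 CPM and with 121 of its 146 UMIs there. The median log2 ratio in fibroblast-like cells was 0.71 over the other fibrillar and -0.02 over the fibril-associated collagens. Col16a1 reached 40.5 CPM in fibroblast-like, Col9a3 34.0 CPM in astrocyte-like and Col14a1 25.5 CPM in smooth muscle-like cells.

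Of 9 other leucine-rich proteoglycans tested, Prelp, Omd and Podn passed in fibroblast-like cells and Aspn, Prelp and Ecm2 in pericyte-like cells, while Aspn and Prelp passed in smooth muscle-like cells, and the medians over the list in these 3 classes were -0.02, 0.14 and 0.27 on the log2 scale. Podn, or podocan, had 17 of its 37 UMIs in fibroblast-like cells, at 86.0 CPM. Of 11 receptors for collagen and fibronectin, 3 passed in each of the fibroblast-like, pericyte-like and smooth muscle-like classes, and the medians over the list were -0.02, 0.54 and -0.02 on the log2 scale. Itga1, the collagen-binding integrin chain, stood at 1019 CPM in pericyte-like cells, and its partner Itgb1 at 1201 CPM in smooth muscle-like cells. Itga4, a chain of a fibronectin receptor, reached 276 CPM in pericyte-like cells, and Itgav 240 CPM in astrocyte-like cells.

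Over the 12 named classes, the genes with the most similar levels were ranked by Pearson's r of log2(CPM + 10), among 14149 genes. The points share libraries and depth, so r is a description. For a gene high mainly in 1 class, r can rest mostly on that class. Lum, for example, had 1426 CPM in fibroblast-like cells and 10.1 CPM in pericyte-like cells, the next class. Ogn went with Tbx18, a transcription factor of mural cells (r = 0.999), and Cys1 (r = 0.993), and Bgn with Cys1 and Lamc3 (r = 0.990 and 0.987). Lum went with Cyp1b1, Col12a1 and Cemip (r = 0.998, 0.995 and 0.991). Col3a1 went with Tfap2b, Calhm5 and Pcolce (r = 0.995, 0.990 and 0.985), Col1a1 with Gjb2, Loxl1 and Cpxm1 (r from 0.989 to 0.987), and Col1a2 with Mmp11, Mxra8 and Eva1c (r from 0.987 to 0.981). Dcn went with Fhl2, Cygb and Calhm5 (r from 0.988 to 0.986). Postn had Plekha4, Gm9888 and Serpinf1 (r from 0.969 to 0.957), and Fn1 had the loosest neighbours, Stx3, Ace and Mlkl (r from 0.913 to 0.888). Fmod had too few UMIs to be ranked.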

How the data were processed

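Cells of the cortex were profiled by 10x 3′ single-cell RNA sequencing. The authors deposited a matrix of raw UMI counts that, per the file headers, came from Cell Ranger 5.0.1, aligned to mm10 per the labels, with the libraries' depths equalised by the authors. The labels name kit versions 3 and 3.1. Libraries 1 to 6 held 1221, 1405, 5873, 4216, 1906 and 2736 cells, and no sample was assigned to a condition because the numbers could not be mapped. In each library, the depth cut for a cell was 0.1 times the 99th percentile among its 3000 deepest barcodes. Cells also needed 200 features and no more than 10% mitochondrial UMIs. Clustering used scikit-learn 1.9.0, igraph 0.11.9 and leidenalg 0.10.2 (2000 variable genes, 30 components, 15 for mural cells, 20 neighbours, resolution 0.8). A class was named from at least 3 raised markers and left unnamed if mostly doublets, led by hemoglobin genes or close to another class, and red blood cells were taken out of the competition. These naming rules were set after the data were seen, and the members and lists were chosen with earlier results of these data known. Doublets called by Scrublet in scanpy 1.11.5 (1.90% of cells) were kept. Genes with at least 10 UMIs were called at a 4-fold step of CPM plus 10. Intervals are exact Poisson for CPM, exact conditional for ratios and Clopper-Pearson for shares, with 3 counts as the limit for a count of 0. Each molecule counts once whatever its length, so genes can be set beside each other, although capture may differ. Without replicates there was no test. The genes named are the 10 members, up to 4 genes per matrix list by level, the neighbours on the chromosome and the 3 most similar genes, of which 1 item is not reported here. Scripts were tested on simulated data. Alternatives were other filters, resolutions, gene sets, folds, pseudocounts, thinning to 1000 UMIs, doublet removal, cell means and leaving out each library.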

Additional observations from a re-analysis of the deposited data

Results flagged for a closer look

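Barcodes with 1 to 50 UMIs, which lie outside the cells and served above only as the level of free RNA, held every member above the limit of a count of 0. This free RNA held 2.06 CPM of Col1a1, 4.93 CPM of Col1a2 and 1.43 CPM of Col3a1. Of the proteoglycans it held 9.60 CPM of Dcn, 11.6 CPM of Bgn, 0.935 CPM of Lum, 0.249 CPM of Fmod and 2.24 CPM of Ogn. Postn stood at 1.93 CPM and Fn1, the highest, at 54.2 CPM. The part of free RNA in class levels at or below these values was not tested.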

How the results depend on the processing

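No paired analysis was possible because the library numbers could not be mapped to samples, so that the hemispheres of a time could not be paired. Of the recomputed values that answer a comparison, 102 lay within the reported ratio's interval, or for counts within 1.5 times, 14 moved and 1 reversed. With cells thinned to 1000 UMIs, the collagen ratio of fibroblast-like to other cells (203) was 147, the decorin ratio of response to other pericyte-like cells (37.6) was 48.7, the biglycan ratio of smooth muscle-like to pericyte-like cells (0.694) was 0.806 and the Fn1 ratio of macrophage-like to endothelial-like cells (1.40) was 1.24. With CPM averaged cell by cell, the collagen ratio was 156 and the Fn1 ratio 1.27. At resolution 0.4 the members called in smooth muscle-like cells were 3 and not 5. Leaving out 1 library at a time moved the collagen ratio between 193 (library 2) and 229 (library 6), the decorin ratio between 3.26 (library 6) and 57.4 (library 4), and the Fn1 ratio between 0.730 (library 6, reversed) and 1.76 (library 4). Causes were not tested. With 31 fibroblast-like cells, values by library rest on 2 to 11 cells, and low members such as Fmod and Postn on few UMIs.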
